A study of Mus musculus with 54 samples.

Results

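TRBD1 and TRBD2 are the 2 diversity (D) segments of the mouse T cell receptor beta chain locus (TRB). The clonotypes of 18 tumor libraries of CD8+ T cells were grouped by the D segment written for each row. Of 19962 clonotypes, 15510 carried a D call, 8663 of them TRBD1 and 6847 TRBD2, and 4452 had none. A clonotype is 1 row of a library, defined by its V segment, J segment and CDR3 nucleotides, and the CDR3 is the loop in which V, D and J meet. The mice were female C57BL/6 bone marrow chimeras, studied 10 weeks after lethally irradiated B6 recipients had received marrow of Fscn1 knock-in mice. In that allele the cassette P2A-DTR-P2A-Cre, which encodes the diphtheria toxin (DT) receptor and Cre, was placed at Fscn1, so DT can kill the marrow-derived cells that express Fscn1, while radioresistant host cells lack the receptor. All mice carried this marrow, were inoculated with B16F10, a mouse melanoma line, and were taken on day 14. They received anti-PD-L1 (clone 10F.9G2), anti-CD4 (clone GK1.5) or both, called the combination, in doses of 200 µg given on days 5 and 9. Some arms also received DT, and its dose is not given here. Libraries analysed were 2 of the combination with DT, 4 of the combination, 1 of anti-CD4 with DT, 1 of anti-CD4, 5 of anti-PD-L1 with DT and 5 of anti-PD-L1. The cells were sorted as TCRβ+ CD4- CD8+ with intravascular staining excluded. The files hold TRB only, so the CD8 phenotype could not be checked against markers. All but 16 of the CDR3s ran from C to F or W, as TRB CDR3s do.

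Total counts ran from 18713 to 4467183 and clonotypes from 151 to 4098 per library, and no library listed a count under 9. Of 19667 distinct nucleotide clonotypes, 241 were found in 2 or more libraries, among them 86 of 8565 TRBD1 clonotypes (1.00%), 91 of 6726 TRBD2 clonotypes (1.35%) and 64 of 4376 without D (1.46%). Several of the shared clonotypes were large in 1 library and rare in another, and whether material passed between libraries was not tested. A TRBD2 clonotype was listed in all 18 libraries, whereas the next most shared clonotype was in 6. The labels name separate samples without saying that these are separate mice, so a p-value here measures only the spread among the libraries, which may be technical.

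Beta chain genes are assembled in thymocytes, where the RAG recombinase first joins a D to a J segment and then a V segment to the joined DJ. Terminal deoxynucleotidyl transferase inserts untemplated bases at both joints, and hairpin opening can leave palindromic (P) bases at uncut D ends. In the RefSeq table for GRCm38.p6, Trbd1 lies on chromosome 6 ahead of the TRBJ1 cluster and Trbc1, and Trbd2 lies between Trbc1 and the TRBJ2 cluster. TRBD1 can therefore join either cluster by deletion, whereas TRBD2 lies beyond TRBJ1, so that a TRBD2 to TRBJ1 joint is not made by that route.

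The D sequences below were assembled from the bases that the calls covered, and are shown because every D call rests on them. The capital marks the first base at which they differ, written A6T with positions counted from the 5′ end of TRBD1.
TRBD1: gggacAgggggc
TRBD2: gggacTgggggggc
Their lengths, 12 and 14 bases, equal those of Trbd1 and Trbd2 in the RefSeq table. After the differing base TRBD1 has 5 G and TRBD2 has 7, so a short G-rich stretch can belong to either. Both segments can be read in 3 frames. TRBD1 then encodes GTGG, GQG or DRG, and TRBD2 encodes GTGG, GLGG or DWGG. The CDR3 sequences that follow run from the conserved C codon to the F or W codon, with the bases matched to D in capitals. The first pair shows the most abundant clonotype of each segment with a match over the whole D, and was picked after values were seen.
TRBD1 in full, TRBV15 and TRBJ1-1: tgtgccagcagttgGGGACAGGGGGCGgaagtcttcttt
TRBD2 in full, TRBV13-1 and TRBJ2-7: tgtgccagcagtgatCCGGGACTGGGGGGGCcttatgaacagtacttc
In both, the capitals run past the segment end into P bases. Such complete segments were uncommon, with 163 TRBD1 and 144 TRBD2 clonotypes.

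The bases behind a call were few. TRBD1 calls matched 7.39 bases on average and TRBD2 calls 9.07, with a lowest match of 5 bases for both. Of the TRBD1 stretches, 68.2% lay inside the segment on the forward strand and 28.7% ran into P bases. Of the TRBD2 stretches, 75.6% lay inside and 20.8% ran into P bases. Reverse-strand matches made up 1.52% of TRBD1 and 1.97% of TRBD2 calls. In 81.3% of TRBD1 calls and 96.4% of TRBD2 calls the stretch was found in 1 segment only. Such a stretch matched its own segment on the forward strand, P bases included, and was absent from the other. The remaining 248 TRBD2 calls were the 135 that matched the reverse strand and 113 that matched neither strand exactly. The remaining 1617 TRBD1 calls held 132 and 137 of these kinds, and the others rested on bases that both segments hold, P bases included. The most frequent TRBD1 stretch was CAGGG (5.49% of TRBD1 calls), and the most frequent TRBD2 stretch was CTGGGGGG (4.67% of TRBD2 calls).

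With all matches counted, TRBD1 was the more frequent call in every library, and its share of clonotypes hardly varied. The order depended on short matches, since matches of at least 8 bases pooled over the libraries gave 3406 TRBD1 and 4638 TRBD2 calls. Every call on a forward-strand stretch that both segments hold, P bases included, was written as TRBD1, which raises its share. Stretches found in 1 segment only gave 7046 TRBD1 and 6599 TRBD2 calls. With all matches TRBD1 took 55.7% ± 2.63 of D-assigned clonotypes (SD, n = 18), from 52.0% to 60.0%, while 22.3% ± 1.04 of all clonotypes had no D. The TRBD1 share was 53.0% and 53.8% in the combination with DT, against 54.6%, 52.4%, 56.3% and 57.8% in the combination. It was 54.7% in the library of anti-CD4 with DT, against 53.2% in that of anti-CD4. In anti-PD-L1 with DT it was 59.8%, 59.6%, 58.1%, 53.5% and 53.7%, against 60.0%, 56.8%, 55.2%, 52.0% and 57.4% in anti-PD-L1. The arms overlapped, apart from the single anti-CD4 libraries, which have no spread. For the smallest library, combination with DT replicate 3, the 95% Wilson interval ran from 44.0% to 61.8%, and for the largest, combination replicate 3, from 54.6% to 58.0%. These intervals cover counting error only.

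Weighted by counts, the same share spread widely. TRBD1 took 52.0% and 35.1% of D-assigned counts in the combination with DT, against 66.9%, 44.8%, 53.4% and 68.3% in the combination. In anti-PD-L1 with DT it took 51.7%, 80.2%, 54.6%, 83.5% and 31.9%, against 64.3%, 55.9%, 76.3%, 63.9% and 51.8% in anti-PD-L1. Anti-CD4 with DT had 76.9% and anti-CD4 had 57.5%. The lowest and the highest value both lay in anti-PD-L1 with DT. In bulk libraries a clone with more cells and one with more TRB RNA per cell cannot be told apart. The leading clonotype of a library was TRBD1 in 12, TRBD2 in 4 and without D in 2 of the 18 libraries. The TRBD1 leader of combination replicate 4, at 31.9% of counts, rests on bases that both segments hold, P bases included. The TRBD1 share of counts of that library, 68.3%, includes it.

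**Figure D1:**
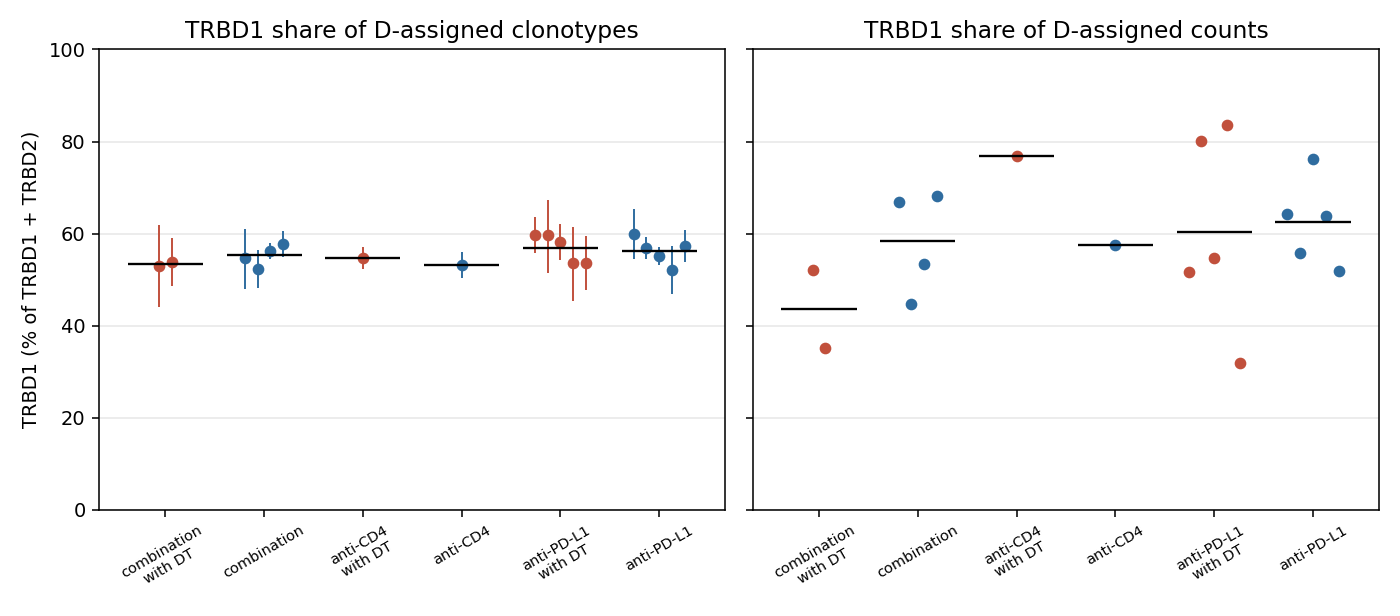
TRBD1 share in percent of D-assigned clonotypes (left) and of D-assigned counts (right) by arm, with 1 point per library, 95% Wilson intervals on the left and a black line at each arm's mean. Libraries with DT are red and those without are blue; the clonotype shares lie between 52.0% and 60.0%, while the count shares run from 31.9% to 83.5%.

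No treatment comparison moved D usage past the spread between libraries. The TRBD1 share of clonotypes averaged 56.9% ± 3.11 with DT and 56.3% without under anti-PD-L1 (n = 5 each), a difference of 0.661 points with an adjusted p of 0.802 in the two-sided exact permutation test. The combination averaged 55.3% ± 2.30 (n = 4), 1.02 points below anti-PD-L1 alone (adjusted p = 0.730, exact permutation test). With DT the combination averaged 53.4% ± 0.588 (n = 2), against 55.3% without (n = 4), and this comparison has only 15 relabelings, so no p under 0.0667 can be had. The share of clonotypes without D gave 22.3% ± 1.16 with DT and 21.9% without under anti-PD-L1, and 23.6% ± 1.48 with DT and 22.1% without under the combination. With DT labels permuted inside each antibody arm and the 2 arms combined, the adjusted p of the exact permutation test was 0.647 for the TRBD1 share of clonotypes, and 0.409 both for its share of counts and for the share without D. The DT effect under anti-PD-L1 minus that under the combination was 2.52 points for the TRBD1 share of clonotypes (adjusted p = 0.439, exact permutation test).

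Pairs of a D class (TRBD1, TRBD2 or none) and a J segment were tested in the same comparisons by edgeR's quasi-likelihood test on clonotype numbers. None passed an adjusted p of 0.05, which is 0.0% of 35 pairs for DT under anti-PD-L1, 0.0% of 36 pairs when the combination was set against anti-PD-L1 and 0.0% of 36 pairs for DT under the combination. At an unadjusted p under 0.05 there were 0, 2 and 2 pairs with edgeR and 1, 0 and 0 with DESeq2. The lowest of these p-values belonged to TRBD1 with TRBJ2-1, whose log2 fold change with DT under the combination was -0.99 ± 0.35 (SE, adjusted p = 0.182, edgeR). Anti-CD4 alone had 1 library on each side and was not compared.

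TRBD1 clonotypes were joined to both J clusters, and TRBD2 clonotypes almost only to TRBJ2. TRBD1 clonotypes used a TRBJ1 segment in 45.6% ± 3.97 of cases (SD, n = 18, from 39.3% to 54.8%), TRBD2 clonotypes in 5.71% ± 2.03 (from 3.03% to 10.7%), and clonotypes without D in 41.3% ± 6.48. The TRBD1 and TRBD2 ranges did not overlap. In all, 385 of 6847 TRBD2 clonotypes (5.62%, 95% exact interval 5.09% to 6.20%) were written with a TRBJ1 segment, and every library held some, between 2 and 98. By arm the share averaged 4.68% in the combination with DT and 5.20% in the combination, and 6.57% in anti-PD-L1 with DT and 5.89% in anti-PD-L1.

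The share of TRBD2 calls with a TRBJ1 partner was highest among short matches. With 5 matched bases 21.8% of TRBD2 calls had a TRBJ1 partner (96 of 440), with 6 bases 14.8%, with 7 bases 10.4% and with 8 bases 4.30%. The share was 2.19% with 9 bases, 0.681% with 10 and 0.257% with 11 to 12 (3 of 1166). With 13 to 20 bases it was 0 of 778 calls, which allows a share of up to 0.386% when 3 counts are taken as the limit, and the 95% exact interval reached up to 0.473%. The TRBJ1 share of TRBD1 calls ran from 41.8% to 50.6% over the same classes. Counting only matches of at least 8 bases left 72 of 4638 TRBD2 calls (1.55%) with a TRBJ1 partner, and at least 10 bases left 8 of 2678 (0.299%).

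**Figure D2:**
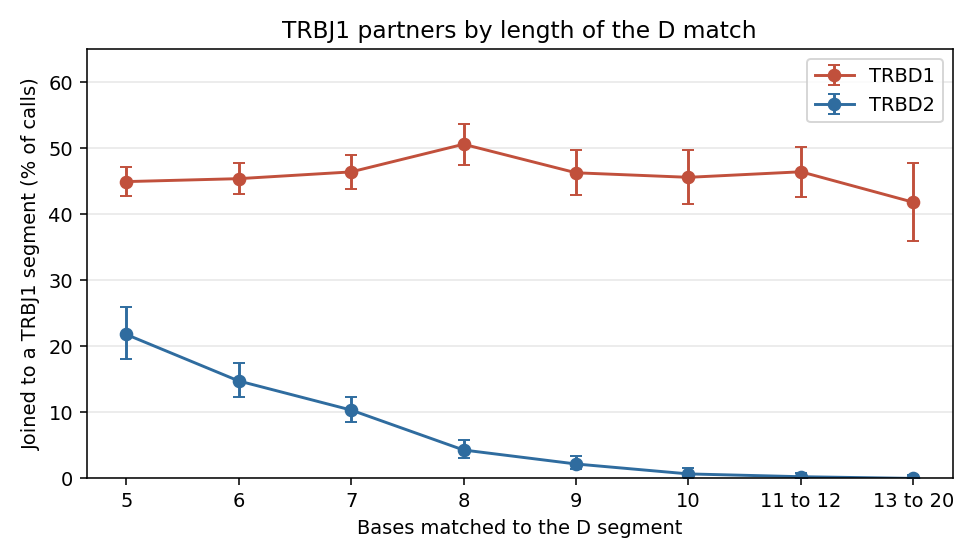
Percent of TRBD1 (red) and TRBD2 (blue) calls joined to a TRBJ1 segment against the number of bases matched to D, over all 18 libraries, with 95% exact binomial intervals that cover counting error only. TRBD2 runs from 21.8% at 5 bases to 0 at 13 to 20 bases, while TRBD1 lies between 41.8% and 50.6%.

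The share also differed with the base at which both segments differ. Only forward-strand stretches, P bases included, were counted as covering it. Among TRBD2 stretches that covered it 2.61% had a TRBJ1 partner (154 of 5905), against 24.5% of those counted as not covering it (231 of 942). The 231 include 57 reverse-strand matches and 6 that matched neither way exactly, so coverage was not separated from strand and exactness. Among TRBD1 stretches the values were 48.4% when it was covered and 36.6% when it was not. Of the 385 TRBD2 to TRBJ1 calls, 278 (72.2%) matched inside the segment on the forward strand, 44 (11.4%) ran into P bases, 57 (14.8%) matched the reverse strand and 6 (1.56%) matched neither way exactly. Reverse-strand matches made up 1.21% of the TRBD2 to TRBJ2 calls. The most abundant TRBD2 to TRBJ1 clonotype, in combination replicate 2 with 5.90% of counts, and the one with the longest match, with 11 counts in combination with DT replicate 4, are shown as the extremes of these calls.
Most abundant, TRBV26 and TRBJ1-6: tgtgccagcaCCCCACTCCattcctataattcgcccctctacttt
Longest match, TRBV29 and TRBJ1-3: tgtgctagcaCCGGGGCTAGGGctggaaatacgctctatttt
Both stretches are among the 6 that match TRBD2 exactly on neither strand, so they do not stand for the other calls, and neither call left an inserted base on either side.

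A similar contrast was counted over all clonotypes, with or without a D call, from base runs that were themselves chosen with the D calls. The 6-base run that TRBD1 clonotypes held most in excess, ACAGGG, occurred in 23.5% of all 6217 TRBJ1 clonotypes and in 11.98% of all 13745 TRBJ2 clonotypes. The run most in excess in TRBD2 clonotypes, CTGGGG, occurred in 28 TRBJ1 clonotypes (0.450%, 95% Wilson interval 0.312% to 0.650%) and in 4401 TRBJ2 clonotypes (32.0%). Per library this TRBD2 run was in 0 to 3.39% of TRBJ1 clonotypes and in 23.9% to 40.0% of TRBJ2 clonotypes, so that the ranges did not overlap. These runs were found in these clonotypes, and the shares are a description.

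Each J segment of a cluster had about the same D partners, with TRBJ2-2 apart. TRBD1 took 91.3% ± 5.35 of the D-assigned clonotypes of TRBJ1-1 (SD, n = 18), 90.3% ± 9.38 of TRBJ1-2, 91.3% ± 6.80 of TRBJ1-3, 91.9% ± 5.49 of TRBJ1-4, 93.6% ± 9.34 of TRBJ1-5 and 92.5% ± 6.63 of TRBJ1-6. No neighbours in this order differed beyond their spread. In the TRBJ2 cluster TRBD1 took 43.1% ± 7.66 of TRBJ2-1, 51.8% ± 12.3 of TRBJ2-2, 41.0% ± 10.8 of TRBJ2-3, 42.0% ± 8.65 of TRBJ2-4, 40.6% ± 7.09 of TRBJ2-5 and 39.6% ± 5.47 of TRBJ2-7. Set against each other within libraries among TRBJ2 clonotypes, TRBD1 and TRBD2 differed in 1 of 6 TRBJ2 segments, 16.7% of those tested. TRBJ2-2 was the more frequent partner of TRBD1, with a log2 ratio of 0.72 ± 0.08 (SE, adjusted p = 6.9e-13, edgeR quasi-likelihood test with the library as a block). With matches of at least 8 bases TRBJ2-5 passed as well, and without anti-CD4 with DT replicate 2 TRBJ2-7 did, both more frequent with TRBD2. Among TRBD1 clonotypes the commonest partners were TRBJ2-7 (15.6% ± 2.61), TRBJ1-1 (14.7% ± 2.28) and TRBJ2-1 (11.8% ± 3.14), and among TRBD2 clonotypes TRBJ2-7 (29.7% ± 2.97), TRBJ2-1 (19.3% ± 2.79) and TRBJ2-5 (15.7% ± 3.04).

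**Figure D3:**
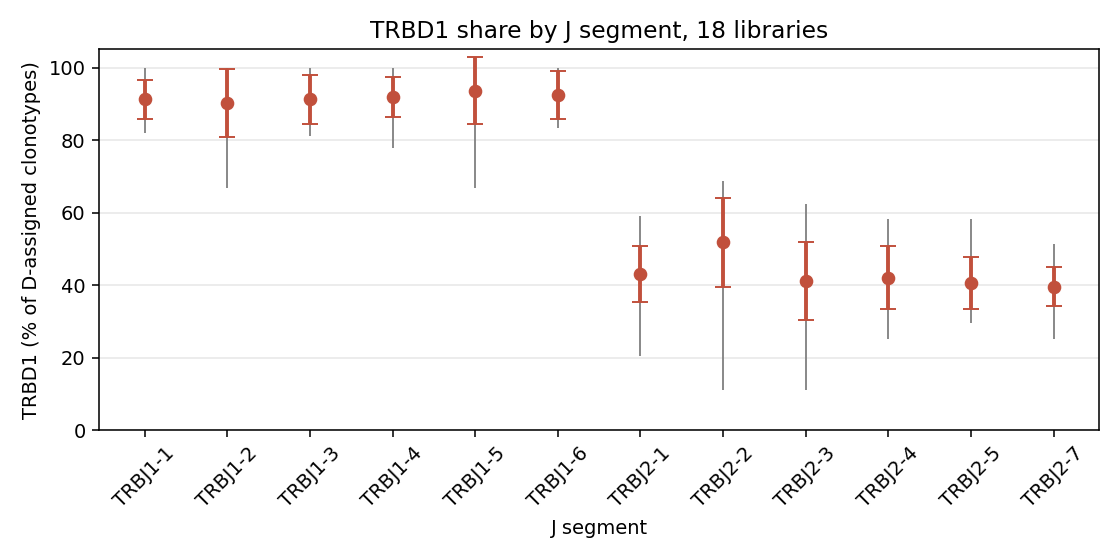
TRBD1 share in percent of D-assigned clonotypes for each J segment, with the mean over 18 libraries, its SD (red bar) and the lowest and highest library (grey line). All TRBJ1 means lie between 90.3% and 93.6% and all TRBJ2 means between 39.6% and 51.8%.

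Because TRBJ1 partners come almost only with TRBD1, both segments were compared among TRBJ2 clonotypes, where either can be used. There TRBD1 held 42.0% ± 3.90 of D-assigned clonotypes (from 34.6% to 49.5%), so TRBD2 was the more frequent call in each library. With matches of at least 8 bases the pooled TRBD1 share among TRBJ2 clonotypes was 28.3%, against 41.9% for all calls. That minimum kept 3406 of 8663 TRBD1 calls and 4638 of 6847 TRBD2 calls over all J. Among TRBJ2 clonotypes the pooled TRBD1 share was 38.7% where the stretch covered the differing base. It was 59.1% where the stretch was counted as not covering it.

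V partners differed between the segments. Among TRBJ2 clonotypes 10 of 22 V segments (45.5%) passed an adjusted p of 0.05 in the edgeR test within libraries, 4 more frequent with TRBD1 and 6 more frequent with TRBD2. The highest log2 ratio among these, TRBD1 over TRBD2, was that of TRBV29, with 1.75 ± 0.14 (SE, adjusted p = 4.5e-29), and TRBV29 made up 7.24% ± 2.28 of TRBD1 and 2.51% ± 1.32 of TRBD2 clonotypes (SD, n = 18). TRBV26 followed with 1.16 ± 0.20 (adjusted p = 1.0e-07), TRBV14 with 0.63 ± 0.12 (adjusted p = 9.8e-07) and TRBV19 with 0.31 ± 0.12 (adjusted p = 0.0203). More frequent with TRBD2 were TRBV4 (log2 ratio -0.78 ± 0.13), TRBV2 (-0.56 ± 0.23), TRBV13-2 (-0.46 ± 0.11), TRBV12-2 (-0.38 ± 0.09), TRBV3 (-0.35 ± 0.10) and TRBV16 (-0.31 ± 0.09). TRBV4 made up 3.50% ± 1.99 of TRBD1 and 5.90% ± 2.16 of TRBD2 clonotypes. Of the 6 most used V segments, TRBV12-1 (-0.05 ± 0.08, adjusted p = 0.553) and TRBV13-1 (-0.08 ± 0.11, adjusted p = 0.523) did not pass. At the same share minimum in all libraries 1 of 19 V segments, TRBV29, passed. There the log2 ratio was 1.18 for TRBV26, 0.85 for TRBV14, -0.49 for TRBV13-2 and -0.48 for TRBV4, but 0.04 for TRBV19 and -0.17 for TRBV2. TRBV2 did not pass without any 1 of 5 libraries (combination with DT replicate 4, combination replicate 3 or 4, anti-CD4 with DT replicate 2, anti-PD-L1 with DT replicate 5), nor with all J segments. TRBV19 did not pass without combination replicate 3 or anti-PD-L1 replicate 2, nor with stretches found in 1 segment only. TRBV16 did not pass without combination replicate 3, the largest library, and TRBV3 did not pass with matches of at least 8 bases.

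Arranged along the chromosome, the TRBD1 share among TRBJ2 clonotypes was higher for V segments closer to the D segments. It was 38.9% for TRBV1, 32.5% for TRBV2, 36.1% for TRBV3 and 29.5% for TRBV4 at the far end. In the middle it was 41.0% for TRBV12-1, 35.6% for TRBV12-2, 34.3% for TRBV13-2, 46.3% for TRBV13-3, 52.9% for TRBV14 and 36.8% for TRBV16. At the near end it was 51.5% for TRBV20, 62.0% for TRBV26, 71.0% for TRBV29 and 67.9% for TRBV30, the last from 28 clonotypes. TRBV31, which lies beyond Trbc2 and joins by inversion, had 33.8%. Spearman's rho between order and share was 0.64 over 22 V segments, 0.84 over the 21 without TRBV31, 0.81 when TRBV29 was left out as well, and 0.54 over the 19 with at least 100 clonotypes, TRBV31 included. The points share their libraries, and rho is given as a description. The base runs, chosen with the D calls, were also counted over all TRBJ2 clonotypes. The TRBD2 run was in 45.8% of those with TRBV4 and in 10.8% of those with TRBV29. The TRBD1 run was in 9.69% with TRBV4 and in 20.4% with TRBV29. In sets formed after values were seen, TRBD1 took 60.5% ± 12.5 with TRBV20 to TRBV30, 41.5% ± 3.60 with TRBV12 to TRBV19 and 37.2% ± 6.59 with TRBV1 to TRBV5, and the first of these sets was above the last in 17 of 18 libraries.

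**Figure D4:**
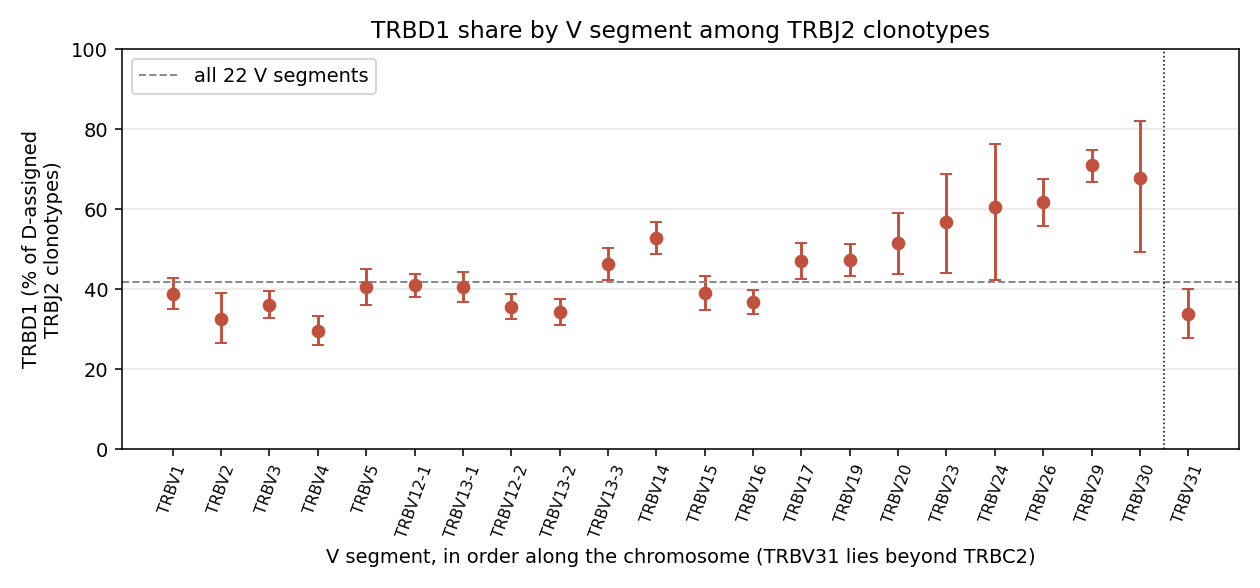
TRBD1 share in percent of D-assigned TRBJ2 clonotypes for 22 V segments in chromosomal order, pooled over 18 libraries with 95% Wilson intervals, and a dashed line at the share over all of them. The share is 29.5% at TRBV4 and 71.0% at TRBV29, and TRBV31, right of the dotted line, has 33.8%.

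The CDR3s of TRBD2 clonotypes were longer. Per library the mean CDR3 length among TRBJ2 clonotypes was 13.5 to 14.2 amino acids with a median of 13.99 for TRBD1, and 14.1 to 14.7 with a median of 14.6 for TRBD2. TRBD1 was shorter in 18 of 18 libraries, with a difference (TRBD1 minus TRBD2) of -0.609 ± 0.176 amino acids (SD, n = 18, adjusted p = 2.5e-05 in the sign-change permutation test over libraries, where 1e-05 is the smallest raw p the draws can give). The smallest difference, -0.0733, was that of anti-PD-L1 with DT replicate 2, a library of 187 clonotypes. TRBD2 clonotypes also kept more D, since TRBD1 clonotypes had 7.36 ± 0.287 and TRBD2 clonotypes 9.15 ± 0.293 matched bases, a difference of -1.79 bases that was below 0 in 18 of 18 libraries (adjusted p = 2.5e-05, same permutation test). TRBD2 is the longer segment, and its calls are limited by the match itself, so this difference is not independent of the call. The matched bases are part of the CDR3, so the difference in CDR3 length is not independent of the call either. Clonotypes without D were shorter still, at 12.8 ± 0.158 amino acids, with 5.37 ± 0.603 bases between V and J, against 10.7 for TRBD1 and 12.3 for TRBD2.

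Inserted bases, those not assigned to V, D or J, numbered 3.37 ± 0.334 for TRBD1 and 3.13 ± 0.218 for TRBD2. The difference of 0.241 was above 0 in 12 of 18 libraries (adjusted p = 0.0240, sign-change permutation test), but with matches of at least 8 bases it was 0.0670 (adjusted p = 0.764), with all J segments 0.148 (adjusted p = 0.0930) and at the same share minimum 0.277 (adjusted p = 0.266). Bases matched to D are left out of this count, and an unmatched base of D is counted as inserted. The difference is therefore not independent of the D call. At the V side the inserted bases numbered 1.64 ± 0.226 for TRBD1 and 1.69 ± 0.136 for TRBD2, and at the J side 1.73 ± 0.145 for TRBD1 and 1.44 ± 0.156 for TRBD2. Clonotypes with no inserted base at either joint made up 10.2% ± 3.06 of TRBD1 and 10.4% ± 2.35 of TRBD2 clonotypes.

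Each segment was read in all 3 frames. Where the TRBD1 run could be placed, 41.2% of 3101 clonotypes read it as GTGG, 28.9% as GQG and 29.9% as DRG. Where the TRBD2 run could be placed, 29.7% of 4392 read it as GTGG, 30.8% as GLGG and 39.5% as DWGG. Per library the DWGG frame took from 28.3% to 43.9% of TRBD2 runs, and the GTGG frame of TRBD1 from 29.7% to 54.5%. These shares were not tested.

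Central residues are those left after dropping 4 at the start and 5 at the end of the CDR3. Among TRBJ2 clonotypes 11 of 20 amino acids (55.0%) passed an adjusted p of 0.05 in the sign-change permutation test within libraries. The D call is read from the bases that encode these residues, so the contrast is not independent of it. Tryptophan, which only TRBD2 encodes, made up 1.09% ± 0.463 of central residues with TRBD1 and 6.73% ± 0.592 with TRBD2 (SD, n = 18). Leucine made up 5.34% ± 0.596 with TRBD1 and 9.68% ± 0.651 with TRBD2, and glycine 24.0% ± 1.34 with TRBD1 and 31.4% ± 1.83 with TRBD2. Arginine, of the DRG frame, made up 9.72% ± 1.02 with TRBD1 and 4.16% ± 0.565 with TRBD2, and glutamine, of the GQG frame, 8.94% ± 0.996 with TRBD1 and 4.46% ± 0.969 with TRBD2. All of these 5 differed in the same direction in 18 of 18 libraries (adjusted p = 4.0e-05 each). Threonine, proline, serine, asparagine, isoleucine and lysine were also more frequent with TRBD1, by 0.285 to 2.31 points. Serine had 7.21% with TRBD1 and 5.66% with TRBD2. Serine, asparagine, isoleucine and lysine did not pass with matches of at least 8 bases. Of the 4 alternatives run, serine and lysine passed in 1 each, isoleucine in 2 and asparagine in 3, while threonine and proline passed in all 4. Without the D call, tryptophan made up 0.925% ± 0.417 of the central residues of TRBJ1 clonotypes and 4.08% ± 0.475 of those of TRBJ2 clonotypes, and was higher in TRBJ2 in 18 of 18 libraries, as were leucine (5.66% in TRBJ1 and 8.22% in TRBJ2) and glycine (21.3% in TRBJ1 and 25.8% in TRBJ2). Arginine was at 7.67% in TRBJ1 and 6.24% in TRBJ2, and was higher in TRBJ2 in 2 of 18 libraries. Glutamine, which TRBD1 encodes in the GQG frame, was the other way, at 4.93% in TRBJ1 and 6.56% in TRBJ2, and was higher in TRBJ2 in 17 of 18. Threonine was at 5.96% in TRBJ1 and 6.09% in TRBJ2, higher in TRBJ2 in 10 of 18. J segments bring residues of their own into this count.

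**Figure D5:**
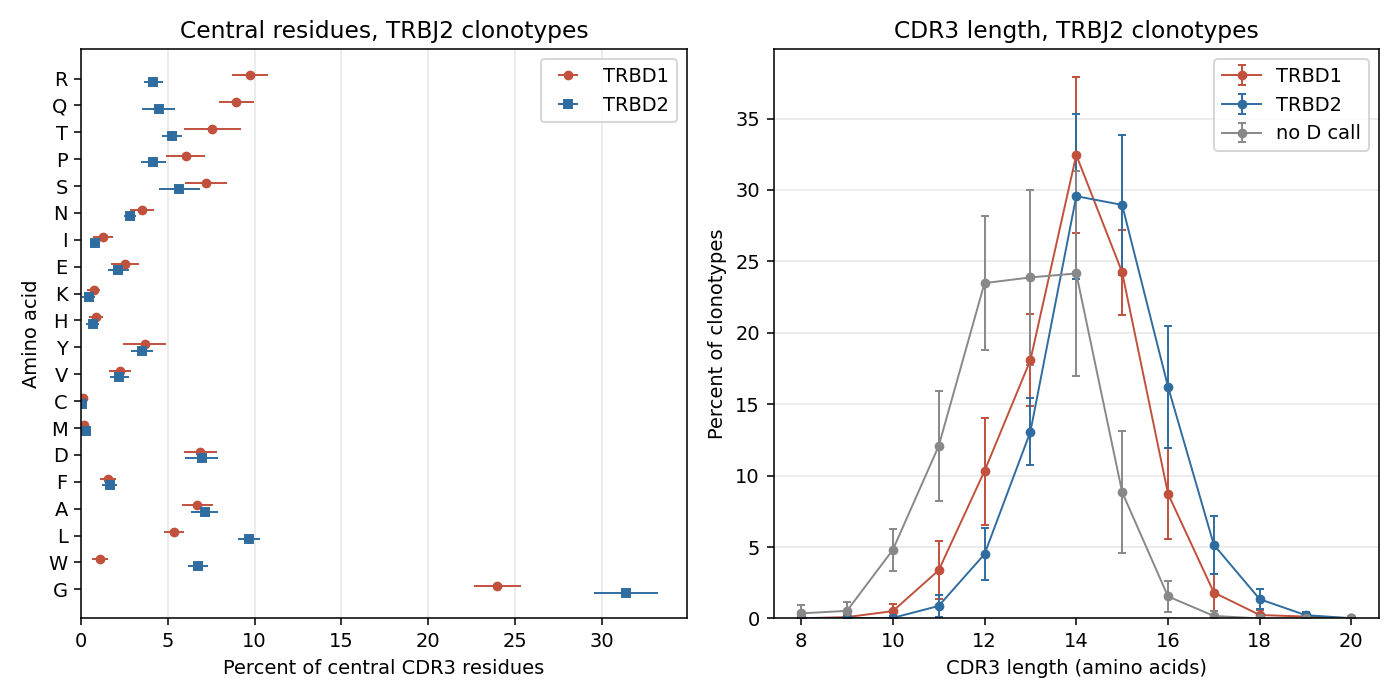
Left, percent of central CDR3 residues for each amino acid in TRBD1 (red) and TRBD2 (blue) clonotypes with a TRBJ2 segment; right, percent of these clonotypes by CDR3 length in amino acids, with clonotypes without D in grey. Points are means and bars SDs over 18 libraries; tryptophan is at 1.09% with TRBD1 and 6.73% with TRBD2, and the length curves are ordered no D, TRBD1, TRBD2.

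No difference in clone size between the segments passed the test. The mean log2 fraction of a TRBJ2 clonotype was -12.51 with TRBD1 and -12.58 with TRBD2, a difference of 0.07 with 12 of 18 libraries above 0 (adjusted p = 0.262, sign-change permutation test). By arm this difference averaged 0.27 in the combination with DT, 0.20 in the combination and 0.14 in anti-PD-L1 with DT, but -0.17 in anti-PD-L1. The single libraries had -0.07 in anti-CD4 with DT and 0.13 in anti-CD4. Whether the arms differ in this was not tested. Clonotypes above 0.5% of counts made up 6.59% ± 7.06 of TRBD1 and 5.97% ± 4.38 of TRBD2 clonotypes, with TRBD1 higher in 7 and lower in 10 of 18 libraries (adjusted p = 0.601). Of the 18 clonotypes that led their D class in an arm, the following 8 held the largest shares of the counts of their own library. The D stretch is in capitals.
TRBD1, anti-CD4 with DT, TRBV19 and TRBJ2-1: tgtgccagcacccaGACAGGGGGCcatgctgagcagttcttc
TRBD1, combination, TRBV16 and TRBJ2-1: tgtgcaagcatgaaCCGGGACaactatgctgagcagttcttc
TRBD1, anti-PD-L1 with DT, TRBV1 and TRBJ2-3: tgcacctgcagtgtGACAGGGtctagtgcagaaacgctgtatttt
TRBD1, anti-PD-L1, TRBV13-1 and TRBJ2-1: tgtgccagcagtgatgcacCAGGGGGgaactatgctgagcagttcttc
TRBD2, anti-PD-L1 with DT, TRBV5 and TRBJ2-7: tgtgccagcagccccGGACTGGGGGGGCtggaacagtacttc
TRBD2, combination with DT, TRBV19 and TRBJ2-7: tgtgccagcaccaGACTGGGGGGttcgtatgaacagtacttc
No D, combination with DT, TRBV14 and TRBJ1-3: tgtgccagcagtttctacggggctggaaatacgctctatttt
No D, combination, TRBV15 and TRBJ2-7: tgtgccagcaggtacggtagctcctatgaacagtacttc
The TRBD1 clonotypes, in the order shown, held 59.8%, 31.9%, 25.4% and 20.5% of all counts of their libraries. The TRBD2 pair held 30.8% and 24.7%. The clonotypes without D held 27.3% of combination with DT replicate 3 and 44.6% of combination replicate 3, so the D shares of counts of these libraries rest on the remaining part. The TRBV16 clonotype shows a call on 7 bases that do not reach the differing base but run into P bases. TRBD2 with its P bases holds the same 7 bases, so this clonotype cannot be assigned to TRBD1 by sequence.

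The other 10 leaders held at most 15.8% of counts. TRBD1 was led by a TRBV15 clonotype at 5.26% in the combination with DT and by a TRBV17 clonotype at 15.8% in anti-CD4. TRBD2 was led by TRBV14 at 10.9% in the combination, TRBV13-2 at 14.6% in anti-CD4 with DT, TRBV17 at 5.25% in anti-CD4 and TRBV3 at 6.80% in anti-PD-L1. Without D the leaders were TRBV13-1 at 1.82% in anti-CD4 with DT, TRBV12-2 at 11.9% in anti-CD4, TRBV14 at 8.59% in anti-PD-L1 with DT and TRBV3 at 9.70% in anti-PD-L1.

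The clonotype listed in all 18 libraries is shown because no other was in more than 6. It joins TRBV1 to TRBJ2-7 through 9 bases of TRBD2 with 4 inserted bases, and had the same nucleotides in each library.
TRBD2, in 18 libraries: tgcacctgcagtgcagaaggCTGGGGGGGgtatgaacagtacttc
It took from 0.0582% of counts in anti-CD4 with DT to 4.89% in anti-PD-L1 with DT replicate 3, with a median of 0.228%. Whether it came from the same source in all libraries was not tested. The most shared TRBD1 clonotype by amino acids, with TRBV5 and TRBJ2-3, was in 5 libraries with 4 nucleotide sequences, and the most shared without D, with TRBV26 and TRBJ1-1, in 5 libraries with 3.

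Among 31 V and J segments, the 3 whose percent of clonotypes followed the TRBD1 share of D-assigned clonotypes most closely over the 18 libraries were TRBV13-3 (Pearson's r = 0.55), TRBV20 (r = 0.52) and TRBJ1-3 (r = 0.44). At the other end, TRBV26 (r = -0.44) and TRBJ1-4 (r = -0.42) went the opposite way about as strongly as TRBJ1-3. These values are a description over libraries of unequal depth.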

How the data were processed

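TRB clonotype tables of 18 tumor libraries were read; the series lists 54 samples, and the other samples and a table of oligonucleotides were not analysed here. Per the file headers the deposited count column holds the abundance of each clonotype as whole numbers, and the deposited fraction is the count divided by the library's total. The sources used here do not state if a count is a read or a molecule, and they name no clonotype caller, segment reference or D match rule. Cutadapt 3.2 is named in the submitters' processing notes. No library lists a count under 9, so rare clonotypes are outside the data. Positions of V end, D and J start in the files gave the matched D bases and the inserted bases. D templates were built from the covered bases; no genome was used.

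The segments and the lists named were chosen with earlier results of these data known. Treatment arms were compared by exact permutation tests, with Benjamini-Hochberg adjustment over 3 measures, and TRBD1 with TRBD2 by sign changes of within-library differences (100000 random draws, adjusted over 5 measures or 20 amino acids). V and J partners and D-J pairs were tested on clonotype numbers with edgeR 4.0.16 in R 4.3.3 (at least 10 clonotypes per feature), with DESeq2 1.42.0 as an alternative; the rest used Python 3.11.15, numpy 2.4.6, pandas 2.3.3 and scipy 1.17.1. The functions were tested on simulated data. Named were every J, the 6 most used V segments and those past the threshold, amino acids past it, the leading clonotypes of each arm and the most shared clonotype. Alternatives were the same share minimum of 0.0481% of counts (the lowest count over the lowest total), D matches of at least 8 bases, other sets of J, leaving out libraries and a replicate block. Alternatives added after seeing the data were D stretches found in 1 segment only and clonotypes found in 1 library only. Rows with the CDR3 of a row at least 100 times larger in the same library (13), or 1 base from one (5), were kept.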

Additional observations from a re-analysis of the deposited data

Results flagged for a closer look

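Of 30 sets of 4 or 5 libraries of 1 arm looked at, 3 held a library that stood apart from the rest of its arm by Dixon's criterion; chance gives about 1 in 20. In combination replicate 2 TRBD1 took 39.4% of D-assigned TRBJ2 clonotypes, against 42.3% to 42.8% in the other libraries of the combination. The difference in matched D bases, TRBD1 minus TRBD2, was -1.12 in replicate 2 of anti-PD-L1 with DT, against -1.96 to -1.72 in the rest of that arm; this library has 187 clonotypes. In combination replicate 1 the percent of TRBJ2 clonotypes above 0.5% of counts was 11.99 points higher for TRBD1 than for TRBD2, against -0.489 to 0.354 points in the rest of that arm, and without this library the difference over the others was -0.0440 points. The causes were not tested.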

How the results depend on the processing

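Shallow libraries and the count minimum of 9 limit shares to clones above it, and short D matches limit the call itself. Under every alternative run, the TRBD1 minus TRBD2 differences in CDR3 length (-0.641 to -0.440 amino acids) and matched bases (-1.83 to -0.512) kept their direction and stayed past the threshold. Neither difference is independent of the D call. The difference in inserted bases, which depends on the D call as well, did not pass with all J (0.148), the same share minimum (0.277) or matches of at least 8 bases (0.0670). At the same share minimum the log2 fraction difference was -0.0529 and that of clonotypes above 0.5% of counts -0.973 points; leaving out 1 library gave 0.04 to 0.09 and -0.0440 to 1.09 for these, the second below 0 when either replicate 3 of the combination with DT or replicate 1 of the combination was left out. V segments called numbered 10, with 13 by DESeq2, 1 at the share minimum, where fewer clonotypes are tested, and 7 to 13 without 1 library. TRBV12-1 had a log2 ratio of 0.15 at the share minimum and TRBV13-1 of 0.10 with all J, neither past the threshold. TRBJ2 segments called numbered 1, but 2 at matches of at least 8 bases and 1 to 2 without 1 library (2 without anti-CD4 with DT replicate 2). The mean share of TRBD2 clonotypes joined to TRBJ1 was 5.71%, and 1.60% at matches of at least 8 bases.

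No treatment difference passed the threshold under any setting, and those near 0 changed sign. The shares could not pass for DT under the combination, nor with the replicate block, because too few relabelings exist. For DT under anti-PD-L1, the share without D was -0.739 points at the share minimum and -0.581 with D stretches found in 1 segment only, and the TRBD1 share of counts 4.59 at matches of at least 8 bases and 5.36 with clonotypes found in 1 library only; leaving out 1 library gave -0.401 to 1.59 for the TRBD1 share of clonotypes, -0.0502 to 0.789 for the share without D and -7.83 to 5.08 for the share of counts. The signs changed without anti-PD-L1 with DT replicate 1 or anti-PD-L1 replicate 4 for the first, anti-PD-L1 with DT replicate 4 for the second, and anti-PD-L1 with DT replicate 1 or 5 or anti-PD-L1 replicate 3 for the last. For the combination against anti-PD-L1, the TRBD1 share of clonotypes was 2.47 at the share minimum, 0.829 at matches of at least 8 bases and 0.0918 with stretches found in 1 segment only; the share without D was -2.67, -1.69 and -1.07 in that order; the share of counts was 12.2 at matches of at least 8 bases and 7.20 with clonotypes found in 1 library only. Leaving out 1 library gave -2.08 to -0.0655, -0.0437 to 0.691 and -7.39 to 0.432 for these measures, with changes of sign in the second without combination replicate 3 or anti-PD-L1 replicate 1 and in the third without combination replicate 2. Over both antibody settings the TRBD1 share of clonotypes was 2.38 at the share minimum. The causes of the sign changes were not tested.

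Replicate numbers are shared between arms, but same-numbered libraries did not deviate together: over 36 D-J pairs their correlations ran from -0.0246 to 0.297 for DT under anti-PD-L1, -0.223 to -0.111 when the combination was set against anti-PD-L1 and -0.0641 to 0.320 for DT under the combination, and 2 of 5 libraries of anti-PD-L1 with DT and 0 of 4 of the combination correlated best with the anti-PD-L1 library of their own number. With the replicate block 0 D-J pairs passed in each comparison. The TRBD1 share of clonotypes differed by 0.661, -0.741 and -3.63 points (adjusted p = 0.875, 1 and 0.750, exact sign-change permutation test). This test of the share had too few same-numbered pairs to give a p under 0.05 in any comparison, so it cannot decide what blocking changes.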
